A study of Homo sapiens with 5 samples.

Results

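The ZNF genes are the human genes named with the root ZNF and a number, most of which encode zinc finger transcription factors. They were taken by symbol: ZNF, digits and an optional capital letter other than P, without antisense or divergent transcripts. By this rule 27 of the 2694 genes in the deposited values are ZNF genes. The values come from total RNA of TC28a2, an established human chondrocyte line that the labels place in costal cartilage, collected after 5 days in growth medium (GM, n = 2) or hypertrophic medium (HM, n = 3). GM was DMEM-HG with 10% fetal bovine serum. HM held 1% serum and, in addition, insulin-transferrin-selenium-A at 1%, BMP-2 at 100 ng/ml, GDF-5 at 10 ng/ml, T3 at 1 µM, L-ascorbic acid at 50 µg/ml, dexamethasone at 10 nM and β-glycerophosphate at 10 mM. Serum and all added factors changed together, so their shares in any difference cannot be told apart, and every library came from 1 cell line.

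Most ZNF proteins recognise DNA through C2H2 zinc fingers, short loops in which a pair of cysteines and a pair of histidines hold a zinc ion. The largest class also carries a KRAB domain, which recruits the corepressor TRIM28 and, with it, the histone methyltransferase SETDB1, and is known for silencing transposable elements. ZNF proteins without KRAB include SMAD and EBF cofactors, corepressors of the NET family and partners of chromatin complexes, several of which act in cartilage and bone.

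The coding sequence of 1 finger from 4 members shows how the class is built and how the members differ, with the codons of the zinc-binding cysteines and histidines in capitals. ZNF423 and ZNF521 are relatives with 27 finger matches each, ZNF609 has 1 match, and ZNF699 is a KRAB gene with 14 matches. All are on GRCh37, the build of hg19, and are written on the coding strand: chr16:49672583-49672645 (minus) for ZNF423, chr18:22807462-22807524 (minus) for ZNF521, chr15:64966542-64966613 (plus) for ZNF609 and chr19:9407261-9407323 (minus) for ZNF699.
ZNF423: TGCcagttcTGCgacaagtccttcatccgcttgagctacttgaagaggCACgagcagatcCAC
ZNF521: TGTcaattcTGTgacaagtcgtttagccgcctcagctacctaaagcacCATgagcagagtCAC
ZNF609: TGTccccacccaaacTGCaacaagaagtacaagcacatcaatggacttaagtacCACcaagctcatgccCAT
ZNF699: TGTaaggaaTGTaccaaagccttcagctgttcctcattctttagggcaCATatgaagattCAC

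Values are log2-transformed and RLE-normalized by the authors, 1 per gene and library, and every difference below is HM minus GM on that log2 scale. The number of reads behind a value is unknown. The list appears to hold the genes that the study itself called different on these 5 libraries, so a gene with no difference would be missing from it. Nothing can therefore be read from the absence of a ZNF gene. RefSeq has 509 protein-coding genes that match the symbol rule, of which 27 (5.31%) are listed, against 2135 of all 20056 protein-coding genes (10.6%). The median of all listed genes was 8.17 and 8.18 in the GM libraries and 8.62, 8.52 and 8.43 in HM replicates 1, 2 and 3. Subtracting these medians lowers every difference by 0.35. Of 15 chondrocyte markers 5 were listed, SOX9, COL2A1, ACAN, COL9A2 and COL9A3, all higher in HM. After median centring 4 of them passed, and SOX9 was at 0.30 (adjusted p = 0.0525, limma, and 0.059 after quantile normalization). Of 10 hypertrophy markers 3 were listed, with MMP13 and PTH1R higher and VEGFA lower, and of 20 proliferation genes MKI67 alone, which was higher. After median centring MMP13 and MKI67 no longer passed, with adjusted p of 0.116 and 0.0859 (limma), while under quantile normalization both passed (0.0495 and 0.00151). Of 16 markers of other cell types 4 were listed, with CD14, NES and CDH1 higher and CDH5 lower (CDH1 had an adjusted p of 0.581 after median centring and 0.01 after quantile normalization, limma), and the log2 of their summed linear values was 9.28 to 9.38 in GM and 9.67 to 10.18 in HM. The part of that shift in the ZNF differences was not tested, and in bulk RNA a change in the share of cells and a change of RNA per cell cannot be told apart.

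Of the 27 ZNF genes, 24 had a higher mean in HM and 3 a lower one. By limma with Benjamini-Hochberg adjustment over all 2694 genes, 23 rose with an adjusted p under 0.05 and 3 fell (ZNF699, ZNF215 and ZNF732). Over all listed genes 62.5% rose and 36.5% fell by the same rule, against 85.2% and 11.1% of the ZNF genes. In either direction 99% of all listed genes passed, so passing is no result about the ZNF genes. The remaining member, ZNF785, had a difference of 0.40 (adjusted p = 0.0532, limma). In 25 members the GM and HM libraries were fully separate, as in 99% of all listed genes. They overlapped in ZNF785 and ZNF703. An exact permutation test of a single gene over these 5 libraries cannot give a p under 0.1, which 24 members reached. The share of all listed genes at that p was not counted, so the 24 are no result about the ZNF genes.

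**Figure D1:**
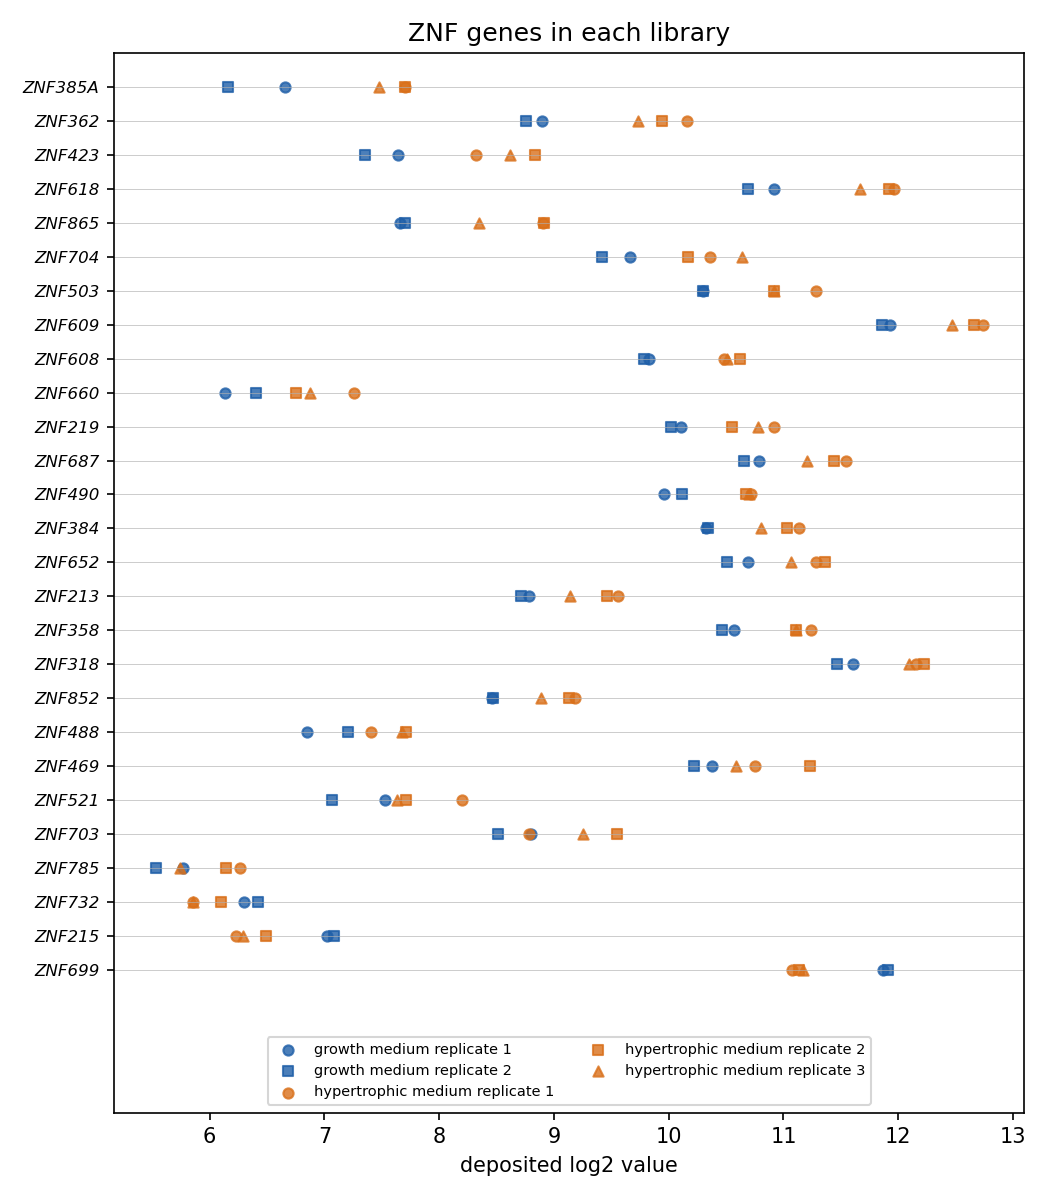
Deposited log2 values of the 27 ZNF genes (horizontal axis) in each library, ordered by the difference between the media. Blue marks the 2 growth medium and orange the 3 hypertrophic medium libraries. The orange points lie to the right of the blue ones except in ZNF732, ZNF215 and ZNF699, where they lie to the left, and in ZNF785 and ZNF703, where they overlap.

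The study's methods name a fold-change cutoff for differential expression that most of the listed genes do not reach on the deposited log2 scale. The differences below are therefore sizes on that scale and need not equal the fold changes behind the list. Among the 24 higher members, 17 lay between 0.5 and 0.75, 5 were at 1 or more, and the median was 0.67, beside 0.70 over all listed genes that were higher. The number that passed depended on the scaling of the libraries. Both rescalings below used the listed genes alone, of which 63.4% had a higher mean in HM. They may therefore remove part of the difference between the media, so a lost call does not show a scaling effect. With each library centred on its median, all 24 stayed above 0 but 14 had an adjusted p under 0.05 (limma), 51.9% of the members beside 31.4% of all listed genes, and the same 3 were lower, beside 36.6%. In either direction 68% of all listed genes then passed. At least 1 higher were 0 members beside 4.45% of all listed genes, and at least 1 lower were 2 members beside 21%. Quantile normalization between libraries left 11 higher, 40.7% of the members beside 46.7% of all listed genes, and 3 lower, beside 35.8%, with 82.4% of all listed genes passing in either direction. It left 1 member higher by at least 1, ZNF385A, beside 5.57% of all listed genes, and 1 lower by as much, ZNF699, beside 14.8%. Of the 23 genes that rose as deposited, 9 passed under both scalings: ZNF385A, ZNF362, ZNF423, ZNF618, ZNF865, ZNF503, ZNF608, ZNF609 and ZNF687. Under median centring alone passed 5, ZNF704, ZNF219, ZNF490, ZNF384 and ZNF358, and under quantile normalization alone 2, ZNF660 and ZNF318. The other 7, ZNF652, ZNF213, ZNF852, ZNF488, ZNF469, ZNF521 and ZNF703, passed under neither. How many of all listed genes pass under both was not counted, so this sorting says nothing particular about the ZNF genes.

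**Figure D2:**
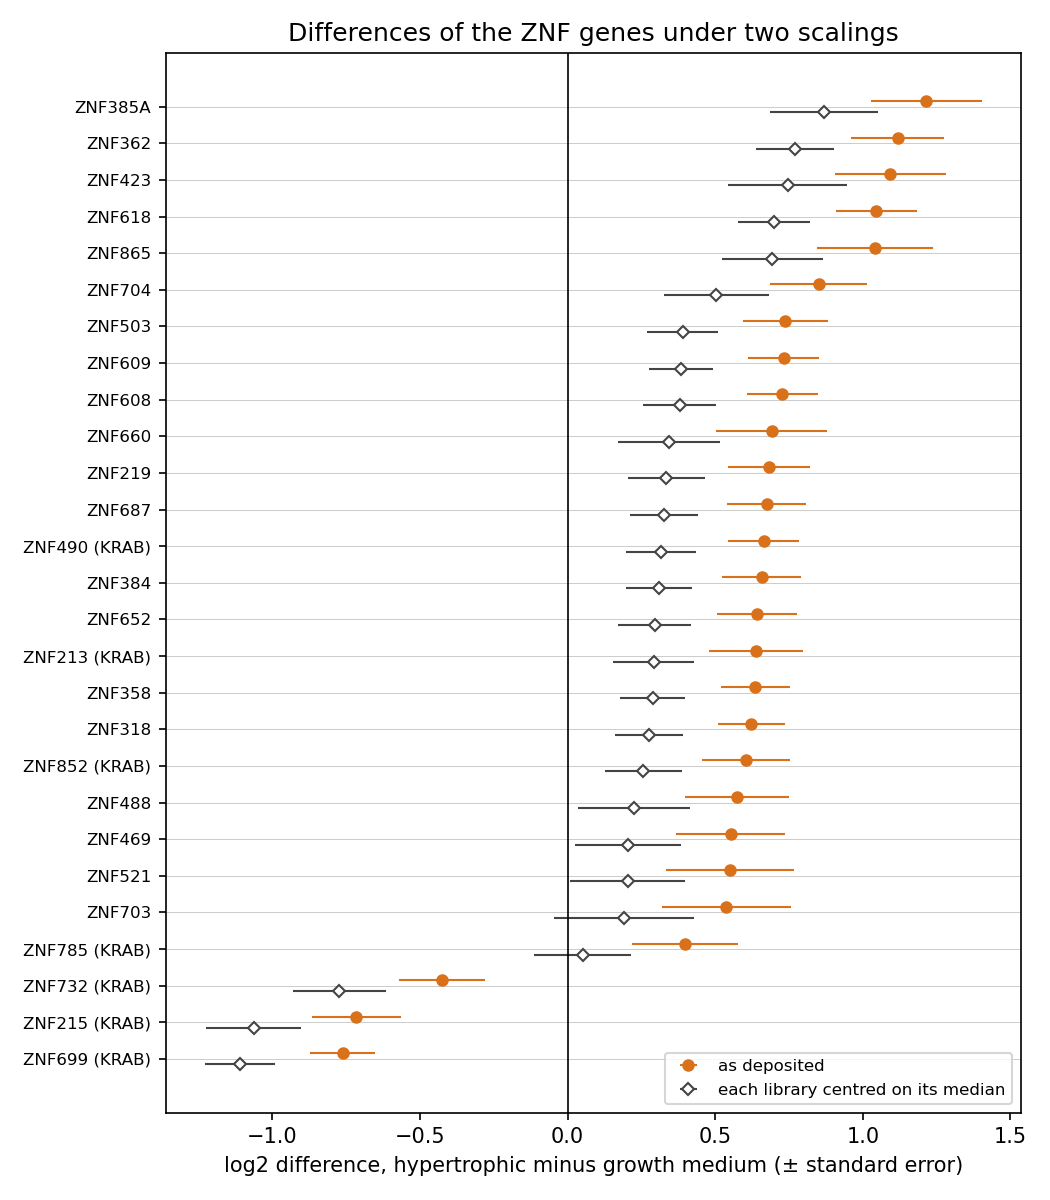
Log2 difference of each ZNF gene, hypertrophic minus growth medium, with its limma standard error, as deposited (filled circles) and after each library was centred on its median (open diamonds). KRAB marks genes whose protein matches a KRAB A box. Centring moves every gene left by 0.35, leaving ZNF785 at 0.05 and taking ZNF699 to -1.11.

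Of the members that rose, 5 did so by at least 1, which is 18.5% of the ZNF genes beside 11.8% of all listed genes. ZNF385A, an RNA- and DNA-binding protein that steers p53 towards cell cycle arrest genes, had the largest difference. It read 6.66 and 6.16 in GM and 7.70, 7.70 and 7.47 in HM, a difference of 1.22 ± 0.19 (SE, with an adjusted p of 0.00054 by limma). The GM libraries were 0.50 apart and the HM libraries lay above both. ZNF362 was 8.90 and 8.75 in GM and 10.16, 9.94 and 9.73 in HM, a difference of 1.12 ± 0.16 (SE, with an adjusted p of 0.000357 by limma). All its HM libraries lay above GM by more than the spread within either medium.

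ZNF423, a many-fingered cofactor that binds SMADs in the BMP response and restrains EBF factors, was 7.64 and 7.35 in GM and 8.32, 8.83 and 8.62 in HM. Its difference was 1.09 (standard error 0.19, adjusted p = 0.000867, limma), with HM replicate 1 the lowest of the HM libraries. ZNF618, a chromatin protein that binds UHRF2, read 10.92 and 10.69 in GM and 11.96, 11.92 and 11.66 in HM. Its difference of 1.05 (standard error 0.14) had the lowest adjusted p among the members, 0.00025 (limma). ZNF865 was 7.65 and 7.71 in GM and 8.90, 8.91 and 8.35 in HM, a difference of 1.04 ± 0.20 (SE, with an adjusted p of 0.00122 by limma), and HM replicate 3 stood below the other HM libraries. The number at 1 or more depended on single libraries. It was 2 without GM replicate 2, 3 without HM replicate 1 and 3 without HM replicate 2. In each of these the differences of all 5 genes were between 0.93 and 1.23 and kept an adjusted p under 0.05 (limma). After median centring the 5 genes had differences from 0.69 to 0.87, again with adjusted p under 0.05.

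ZNF521, the relative of ZNF423, also restrains EBF factors and is known to bind RUNX2 and curb its activity in osteoblasts and chondrocytes. It was 7.53 and 7.07 in GM and 8.20, 7.71 and 7.63 in HM. The HM libraries lay above GM, by 0.10 from the lowest HM to the highest GM library. Its difference was 0.55 (standard error 0.22, adjusted p = 0.0329, limma). It was 0.32 without GM replicate 2, 0.37 without HM replicate 1 and 0.62 without HM replicate 2, with adjusted p of 0.277, 0.0755 and 0.0527 (limma), and 0.20 after median centring (adjusted p = 0.361). The proteins of ZNF423 and ZNF521 are identical at 66.7% of aligned residues. The log2 value of ZNF423 less that of ZNF521 was 0.11 and 0.28 in GM and 0.12, 1.12 and 0.99 in HM, so HM replicate 1 lay within GM and the others above it (exact permutation p = 0.3, two-sided).

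A difference of 2 genes within a library does not move when a library is rescaled as a whole, so 3 more pairs of related members, chosen after their values were seen, were read in this way. In 4 pairs the smallest p of each exact test is 0.1, and none could pass 0.05. ZNF384 (CIZ), a nuclear matrix protein that binds promoters of collagen and metalloproteinase genes, is identical to ZNF362 at 53.7% of aligned residues. ZNF384 read 10.32 and 10.35 in GM and 11.14, 11.03 and 10.80 in HM, a difference of 0.66 ± 0.13 (SE, with an adjusted p of 0.00174 by limma). ZNF362 less ZNF384 was -1.42 and -1.59 in GM and -0.98, -1.09 and -1.07 in HM, with no overlap, a shift of 0.46 (exact permutation p = 0.1, two-sided).

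ZNF609, a partner of the cohesin loader, and its relative ZNF608 moved by nearly the same amount. ZNF609 was 11.93 and 11.86 in GM and 12.74, 12.66 and 12.47 in HM, a difference of 0.73 ± 0.12 (SE, with an adjusted p of 0.000743 by limma). ZNF608 was 9.83 and 9.79 in GM and 10.48, 10.62 and 10.50 in HM, also a difference of 0.73 ± 0.12 (SE, with an adjusted p of 0.000749 by limma). Both kept an adjusted p under 0.05 after median centring and after quantile normalization. Their proteins are identical at 50.5% of aligned residues, and ZNF608 less ZNF609 changed by -0.0039 between the media, with -2.10 and -2.07 in GM and -2.26, -2.04 and -1.97 in HM (exact permutation p = 1, two-sided).

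ZNF503 and ZNF703 are corepressors of the NET family, whose atypical fingers give 0 matches to the finger pattern used here. ZNF503 was 10.30 in both GM libraries and 11.28, 10.92 and 10.91 in HM, a difference of 0.74 ± 0.14 (SE, with an adjusted p of 0.0014 by limma). ZNF703 was 8.80 and 8.52 in GM and 8.78, 9.55 and 9.26 in HM, so HM replicate 1 fell within GM, and its HM spread was the widest among the members, 0.39 (SD, n = 3). Its difference was 0.54 (standard error 0.22, adjusted p = 0.0371, limma). Without GM replicate 2, HM replicate 2 or HM replicate 3 it was 0.40, 0.36 and 0.51, with adjusted p of 0.198, 0.134 and 0.0936 (limma). ZNF503 less ZNF703 was 1.50 and 1.78 in GM and 2.49, 1.37 and 1.66 in HM, an overlap (exact permutation p = 0.9, two-sided).

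Of 62 ZNF genes listed for a known role, 14 were in the deposited values, all rose, and 9 of them kept an adjusted p under 0.05 (limma) after median centring. Of all members 85.2% rose as deposited and 51.9% passed as higher after centring, and of all listed genes 62.5% and 31.4%. Among the members with a known tie to cartilage, bone or matrix, ZNF219 is a partner of SOX9 in cartilage gene activation. It was 10.11 and 10.02 in GM and 10.91, 10.55 and 10.78 in HM, a difference of 0.68 ± 0.14 (SE, with an adjusted p of 0.00178 by limma). SOX9 itself was 10.85 and 10.69 in GM and 11.59, 11.47 and 11.18 in HM. The libraries of the media were separate in both genes. ZNF687, a chromatin protein mutated in a form of Paget disease of bone, was 10.79 and 10.66 in GM and 11.54, 11.44 and 11.21 in HM, a difference of 0.67 ± 0.14 (SE, with an adjusted p of 0.00158 by limma). ZNF469, the brittle cornea syndrome gene linked to collagen production, was 10.38 and 10.22 in GM and 10.75, 11.23 and 10.59 in HM, a difference of 0.55 ± 0.18 (SE, with an adjusted p of 0.0165 by limma). HM replicate 2 stood above the other HM libraries, and without it the difference was 0.37 (adjusted p = 0.038, limma). Without GM replicate 2 the difference was 0.47. After median centring ZNF219 and ZNF687 had adjusted p of 0.0452 and 0.03 and ZNF469 of 0.316 (limma). Under quantile normalization these were 0.0819, 0.0361 and 0.52.

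The remaining higher members without a KRAB match were ZNF704, ZNF660, ZNF652, ZNF358, ZNF318 and ZNF488, with differences from 0.57 to 0.85 and adjusted p under 0.05 (limma). ZNF704 had the largest, from 9.66 and 9.42 in GM to 10.36, 10.17 and 10.64 in HM, and was the 1 higher member whose highest library was HM replicate 3. ZNF652, a repressor that works with CBFA2T3, rose by 0.64 (standard error 0.13), and ZNF318, which acts in the choice between IgM and IgD transcripts in B cells, rose by 0.62 (standard error 0.11). ZNF488, an OLIG2 partner in oligodendrocytes, was 6.85 and 7.20 in GM and 7.41, 7.71 and 7.68 in HM. Its difference of 0.57 was 0.40 without GM replicate 1 (adjusted p = 0.15, limma). The difference of ZNF660, 0.69, was likewise 0.55 without GM replicate 1 (adjusted p = 0.0604, limma). After median centring ZNF652, ZNF318, ZNF488 and ZNF660 had adjusted p of 0.0575, 0.0576, 0.3 and 0.1, and under quantile normalization ZNF652, ZNF704, ZNF358 and ZNF488 had 0.0852, 0.0574, 0.0683 and 0.103 (limma).

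A KRAB A box was matched in 7 of the 27 members (25.9%), beside 311 of the 503 ZNF genes with a translated coding sequence (61.8%). These shares describe which genes are listed, and nothing is read from the KRAB genes that are not. The 3 members that fell were all KRAB genes. The other KRAB genes, ZNF490, ZNF213, ZNF852 and ZNF785, were higher, and all 20 members without KRAB were higher as well, where 63.4% of all listed genes had a higher mean in HM. This split was noticed in the values and carries no test, and the KRAB pattern was widened after the protein sequences of the members were read. The median difference was 0.40 for the 7 KRAB genes and 0.69 for the other 20, and 0.05 and 0.34 after median centring.

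ZNF699 fell the most. It was 11.86 and 11.91 in GM and 11.08, 11.13 and 11.17 in HM, a difference of -0.76 ± 0.11 (SE, with an adjusted p of 0.000414 by limma). Its gap between the media was many times its spread, with SDs of 0.035 (n = 2) in GM and 0.048 (n = 3) in HM. ZNF215, a SCAN and KRAB gene from the imprinted region of chromosome 11, was 7.02 and 7.08 in GM and 6.23, 6.49 and 6.29 in HM, a difference of -0.72 ± 0.15 (SE, with an adjusted p of 0.00201 by limma). All its HM libraries were below both GM libraries. ZNF732 was 6.30 and 6.42 in GM and 5.85, 6.10 and 5.85 in HM, a difference of -0.43 ± 0.15 (SE, with an adjusted p of 0.0182 by limma). Without GM replicate 2 it was -0.36 (adjusted p = 0.116, limma). No member fell by 1 or more as deposited (limma), beside 7.05% of all listed genes, while all 3 had a raw p under 0.05. After median centring ZNF699 and ZNF215 were at -1.11 and -1.06.

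Of the higher KRAB genes, ZNF490 had the tightest HM values, 10.72, 10.68 and 10.70 against 9.96 and 10.11 in GM, a difference of 0.66 ± 0.12 (SE, with an adjusted p of 0.00103 by limma). ZNF213, which joins SCAN and KRAB domains like ZNF215, rose by 0.64 (standard error 0.16, adjusted p = 0.00457, limma), and ZNF852 by 0.60 (standard error 0.15, adjusted p = 0.0042, limma). Neither passed under the other scalings, with adjusted p of 0.0811 and 0.104 after median centring and 0.146 and 0.125 after quantile normalization (limma), and ZNF490 had 0.0382 and 0.0895. ZNF785 was 5.77 and 5.53 in GM and 6.26, 6.14 and 5.74 in HM, the last lying between the GM libraries. Its difference was 0.55 without HM replicate 3 (adjusted p = 0.0112, limma). A fit with the replicate number as a block gave the same value by design, since only HM has a replicate 3. Without HM replicate 1 or 2 the difference was 0.29 and 0.35, with adjusted p of 0.137 and 0.14 (limma). It was 0.52 without GM replicate 1, 0.28 without GM replicate 2, and 0.05 after median centring (adjusted p = 0.784, limma). ZNF703, at an adjusted p of 0.0371, is the member just inside the 0.05 threshold and ZNF785 the member just outside.

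**Figure D3:**
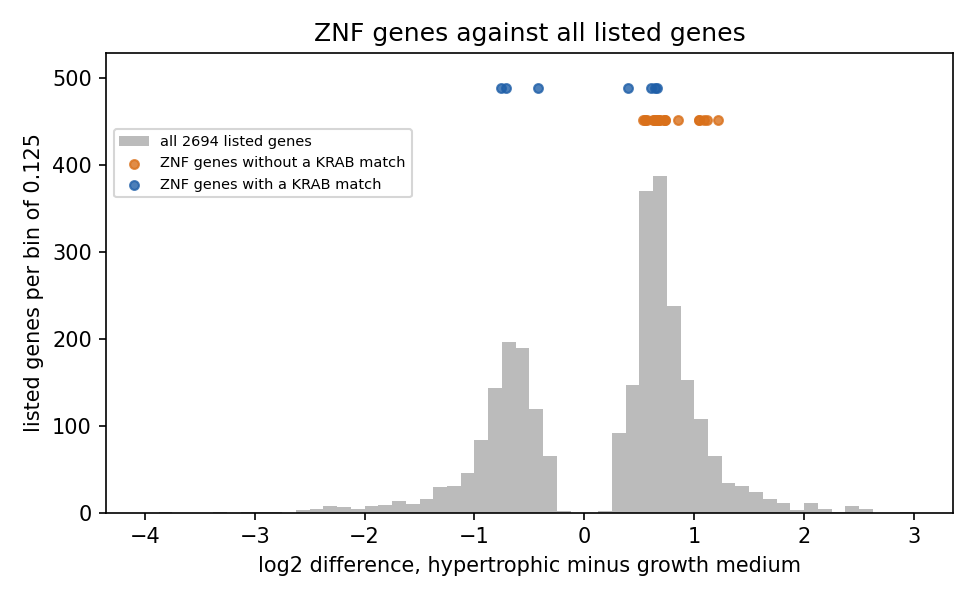
Distribution of the log2 differences of all 2694 listed genes (grey bars, genes per bin) with the ZNF genes as points above it, those with a KRAB match in blue and the others in orange. The grey distribution has almost no genes near 0, and the 20 orange points all lie between 0.54 and 1.22.

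Finger number did not order the differences. Across the 27 members the Spearman correlation between finger matches and the difference was -0.126, given as a description since all members share the same libraries. The median was 7 matches in the members and 10 in the 503 ZNF genes. Members with 0 or 1 match numbered 5 (18.5%), beside 23 of the 503 (4.57%), and all 5 rose, from 0.54 for ZNF703 to 0.85 for ZNF704, where 85.2% of all members and 62.5% of all listed genes rose. At the other end, ZNF423 and ZNF521 with 27 matches each differed by 1.09 and 0.55, and ZNF865 with 20 matches by 1.04.

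**Figure D4:**
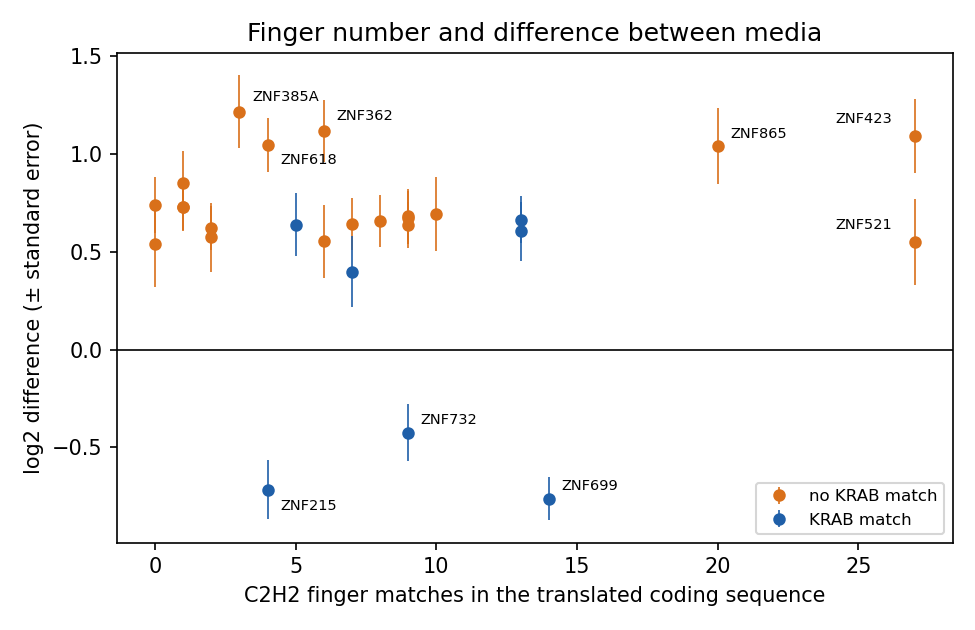
Log2 difference between the media, with its limma standard error, against the number of C2H2 finger matches in the translated coding sequence, for the 27 ZNF genes. Genes with a KRAB match are blue and the others orange, and the 3 genes below 0 are the KRAB genes ZNF215, ZNF732 and ZNF699.

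The HM libraries were not equal. Among the 24 higher members, HM replicate 1 was the highest HM library in 14, replicate 2 in 9 and replicate 3 in 1, and replicate 3 was the lowest in 16. The medians of all listed genes follow the same order of libraries. Those of the 27 members do not, at 10.36, 10.17 and 10.50 in HM replicates 1, 2 and 3. The part of the library medians in the order of the members was not tested. In GM, replicate 1 was above replicate 2 in 18 of 27 members. Standard errors ran from 0.11 to 0.22, with a median of 0.15 for the members and 0.15 for all listed genes.

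In the genome (positions on GRCh37), the listed members were spread over 16 chromosomes. Of them 4 (14.8%) lie on chromosome 19, where 246 of the 509 ZNF genes of RefSeq (48.3%) are found. Those are ZNF699 (chr19:9401816-9420514), which fell, and ZNF490 (chr19:12686914-12750912), ZNF358 (chr19:7580178-7585911) and ZNF865 (chr19:56117013-56128635), which rose. ZNF852 (chr3:44533372-44552128, minus strand) and ZNF660 (chr3:44619715-44641186, plus strand) lie near each other, with ZKSCAN7, which was not listed, between their starts. The annotated spans of ZKSCAN7 and ZNF660 overlap on the same strand, so reads of the 2 genes may be hard to tell apart. The genes ranged in length from 3935 bases for ZNF503 (chr10:77157588-77161522) to 370396 for ZNF423 (chr16:49521435-49891830), and 6 were longer than 100 kb. The Spearman correlation of gene length with the difference was 0.197 over the 27 members, as a description.

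Promoters were searched for motifs of nuclear receptors, since the medium supplied ligands of these, and of SP, KLF and GLI factors. RefSeq promoters (GRCh38.p14), windows of 300 bases of which 250 precede the start, were found for 18 members. The GC box bound by SP and KLF factors, GGGCGG or its reverse complement CCGCCC, was in 61.1% of those, 63.5% of 430 ZNF promoters, 67.2% of 1758 listed genes and 44.6% of all 27305 promoters. The thyroid hormone receptor core motif AGGTCA (or TGACCT) was in 0 of 18 members, 10.5% of ZNF promoters, 10.1% of listed genes and 13.9% of all promoters. The glucocorticoid receptor core motif AGAACA (or TGTTCT) was in 1 of 18 members, 8.37% of ZNF promoters, 9.9% of listed genes and 14.9% of all promoters. The GLI motif GACCACCCA (or TGGGTGGTC) was in 0 of 18 members, 0 of 430 ZNF promoters, 0.228% of listed genes and 0.249% of all promoters. These letters were searched in that window alone. The 250 bases before the start are shown for 2 members that rose by more than 1 and have a single promoter entry, ZNF362 (chr1:33256242-33256491, plus) and ZNF865 (chr19:55605397-55605646, plus), and for ZNF699, which fell the most (chr19:9309839-9310088, minus). They are on GRCh38.p14, written on the strand of the gene, with GC boxes in capitals.
ZNF362: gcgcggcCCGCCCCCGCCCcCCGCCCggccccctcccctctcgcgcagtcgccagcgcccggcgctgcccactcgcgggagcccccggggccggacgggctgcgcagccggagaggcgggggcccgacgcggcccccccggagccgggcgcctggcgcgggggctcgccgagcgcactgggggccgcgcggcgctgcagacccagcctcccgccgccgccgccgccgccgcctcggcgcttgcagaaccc
ZNF865: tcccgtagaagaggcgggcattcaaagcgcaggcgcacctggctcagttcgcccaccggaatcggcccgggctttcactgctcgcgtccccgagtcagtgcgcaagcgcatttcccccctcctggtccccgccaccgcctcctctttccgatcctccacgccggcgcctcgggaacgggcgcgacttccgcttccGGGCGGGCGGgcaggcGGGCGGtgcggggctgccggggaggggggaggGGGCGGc
ZNF699: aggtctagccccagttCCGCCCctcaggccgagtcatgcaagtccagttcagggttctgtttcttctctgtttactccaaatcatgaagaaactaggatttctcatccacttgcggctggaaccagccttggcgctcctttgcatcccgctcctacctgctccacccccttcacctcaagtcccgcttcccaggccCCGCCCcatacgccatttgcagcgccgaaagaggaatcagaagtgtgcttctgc
ZNF362 has 3 GC boxes here, ZNF865 has 4 and ZNF699 has 2, overlapping matches included. The windows of 300 bases hold 51 CG dinucleotides in ZNF362, 40 in ZNF865 and 18 in ZNF699, where the median was 20.5 in the 18 members, 22 in ZNF promoters, 25 in listed genes and 14 in all promoters.

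Other zinc finger genes and the KRAB machinery were read from lists chosen by symbol or function. Of the genes named ZSCAN, ZKSCAN, ZBTB, ZFP, KLF, SP, EGR, GLI or PRDM with a number, 18 were listed, of which 15 rose and 3 fell (adjusted p under 0.05, limma), with a median difference of 0.84. Of all listed genes 62.5% rose and 36.5% fell, with a median of 0.56. Among them ZFP36 (higher) and SP140 (lower) stand for proteins without C2H2 fingers. The largest changes were in the immediate early gene EGR1, from 8.08 and 7.90 in GM to 10.34, 9.40 and 8.96 in HM, in the hedgehog effectors GLI3 and GLI1, with differences of 1.26 and 1.21, and in KLF13, with 1.10. After median centring 12 of the 18 were higher and 3 lower with an adjusted p under 0.05, beside 31.4% and 36.6% of all listed genes. Of 39 symbols for genes of the KRAB corepressor pathway, with old and new names counted separately, 2 were listed. CBX5, heterochromatin protein HP1α, read 14.01 and 13.91 in GM and 14.74, 14.90 and 14.75 in HM, a difference of 0.83 ± 0.11 (SE, with an adjusted p of 0.000308 by limma). ATF7IP, the SETDB1 partner, rose by 0.61 (standard error 0.12, adjusted p = 0.00145, limma). With libraries centred, CBX5 still passed and ATF7IP was at 0.26 (adjusted p = 0.085, limma), and after quantile normalization at 0.61 (adjusted p = 0.00179). TRIM28 and SETDB1 were not listed.

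A further 5 rows carry a ZNF name but fall outside the symbol rule. The antisense RNA ZNF503-AS2 was 7.63 and 7.62 in GM and 8.15, 8.17 and 8.10 in HM, higher by 0.52 (standard error 0.14, adjusted p = 0.00717, limma) beside 0.74 for ZNF503. Unlike ZNF503 it passed under neither other scaling, with 0.17 after median centring and 0.25 after quantile normalization (adjusted p = 0.295 and 0.104, limma). ZNF433-AS1, whose sense gene was not listed, and the pseudogene ZNF702P had differences of -0.57 and -0.61, and limma gave adjusted p of 0.00353 and 0.00262. The readthrough rows ZNF670-ZNF695 and ZNF816-ZNF321P had differences of -0.40 and 0.67, with adjusted p of 0.0278 and 0.0579 (limma). In ZNF816-ZNF321P the libraries of the media overlapped, with 4.19 in both GM libraries and 4.17, 5.54 and 4.86 in HM.

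Some member values are uncertain because reads can be shared. Exons of 10 members overlap exons of a gene on the opposite strand in GENCODE, and it is not stated that reads were counted by strand, although the library kit keeps it. ZNF503 and ZNF503-AS2 are such a pair, so their values may not be independent. Stretches of 75 or more bases were found exactly in a transcript of another annotated gene in 11 members, covering over 10% of the transcript in 6: ZNF490 (56.9%), ZNF785 (42%), ZNF362 (24.6%), ZNF358 (21.4%), ZNF384 (14.6%) and ZNF503 (12.1%).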

How the data were processed

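Total RNA libraries of TC28a2 cells (GM, n = 2, and HM, n = 3, day 5) were made with a stranded total RNA kit. The deposited values are log2-transformed and RLE-normalized by the authors. Per the study's methods, reads were trimmed, aligned to hg19 with HISAT2 and counted on NCBI genes with StringTie, with genes at a zero count in any sample dropped. The submitters' processing notes instead name cutadapt 1.18, TopHat2 2.0.13, Cuffdiff 2.2.1 and the rat build rn5. The symbols are human, and the conflict was not resolved. The transformation is not named further, so differences need not equal fold changes of counts. The design was written for log2 values, and no count test was possible.

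Media were compared with limma 3.58.1 (lmFit, eBayes with a trend, R 4.3.3) over all 2694 genes, with Benjamini-Hochberg adjustment. The fit was also run on simulated data in which most genes were unchanged. The listed genes differ from that setting, so the run does not bear on their p-values. The study describes its replicates as biological but does not say how these libraries were separated (by culture, passage or day). The p-values therefore speak only of the spread between these libraries. The listed genes appear to have been picked by a test on the same libraries, which favours a small spread. Standard errors and p-values may therefore be too small. Replicate numbers 1 and 2 are shared by the media but did not pair them: the correlation of replicate 1 minus 2 between GM and HM was -0.0253 over 2694 genes. The members and lists were chosen with earlier results of these data known. Named were the 12 largest increases, the lower members, members with a known role, and those at the threshold or printed with a sequence. All 27 came to be named. Positions are from GENCODE 44 on GRCh37. Fingers (C, 2 to 4 residues, C, 12, H, 3 to 5, H) and KRAB boxes were matched in translated GENCODE coding sequences, since no protein table was used here. The KRAB pattern written at the outset was replaced, as it misplaced a residue, and 5 genes with an internal stop were left out. Identities come from global alignment (Biopython 1.88), and shared stretches from blastn 2.17.0.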

Additional observations from a re-analysis of the deposited data

How the results depend on the processing

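Median centring of each library gave 14 higher and 3 lower ZNF genes with an adjusted p under 0.05 (limma), 0 higher and 2 lower by at least 1, and a median difference of 0.31, against 23, 3, 5, 0 and 0.66 as deposited. Quantile normalization gave 11, 3, 1, 1 and 0.30. Both rescalings used the listed genes alone and may remove part of the difference between the media. With the replicate number as a block, 24 were higher and 3 lower, 5 and 0 by at least 1, with a median of 0.73. ZNF785 was the 1 member whose call changed. Only HM has a replicate 3, so this fit repeats the differences found without that library and is no separate check. Over the libraries left out in turn, 20 to 23 members were higher and 2 to 3 lower, 2 to 5 were higher and 0 lower by at least 1, and the median ranged from 0.62 to 0.73. Fitting without a trend, leaving out genes with a mean value under 6, which removed ZNF785, and keeping the members with a finger match changed no count by over 1.5 times. No member's difference changed sign in any of these. Shares of all listed genes were not counted for the block and leave-out fits, so their counts are no result about the ZNF genes in particular. Of 269 single-gene values under the alternatives, 236 kept their side of the threshold, 31 lost it and 2 gained it, and 21 of the losses came from median centring and quantile normalization. Read depth is unknown from log2 values, so counting error was not assessed, and the precision rests on 2 and 3 libraries.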
